A study of Caenorhabditis elegans with 6 samples.

Results

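The genes described here are the Hedgehog-related and Patched-related genes of *Caenorhabditis elegans*, chosen by name: every gene of the count table called wrt, grd, grl, ptr or ptc with a number, plus hog-1 and qua-1. They number 85 of 46748 features. Of these, 59 are ligand-like (10 wrt or warthog, 16 grd or groundhog, 31 grl or ground-like, hog-1 and qua-1) and 26 are receptor-like (24 ptr and 2 ptc). RNA was sequenced from whole hermaphrodites of the laboratory strain N2, aged 5 days. One group of 3 libraries carries the perturbation label Y6B3B.9, the name of a worm gene, and the other group of 3 carries the label L4440, the name of the empty plasmid commonly fed to worms as a control in RNA interference. Whether Y6B3B.9 was lowered or raised is not stated in the labels. Nor do they say whether the libraries came from separate cultures, so p-values measure the spread between these libraries, which may be technical.

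Worms have no gene for a classical Hedgehog and none for Smoothened, the membrane protein that passes the Hedgehog signal on in flies and vertebrates. They have instead large families of secreted proteins, many of which share with Hedgehog a self-cleaving carboxy-terminal part or carry a short cysteine-rich domain, and many Patched-like membrane proteins with a sterol-sensing domain. Both groups are known chiefly from the epidermis, from glia and other lining cells, and from work on molting, the shedding and renewal of the cuticle.

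Depth ran from 23103541 to 32012257 counted reads a library. Counts were scaled to CPM (reads relative to the library total) with TMM factors, which correct library totals for composition, and the labels were compared with edgeR's quasi-likelihood test over all 14265 genes with enough reads, at a Benjamini-Hochberg adjusted p of 0.05. Y6B3B.9 itself averaged 35.8 ± 3.58 CPM under the Y6B3B.9 label, against 22.8 ± 0.387 CPM under the L4440 label (SD, n = 3 each). It was thus higher, not lower, under its own label, and every direction below is between labels: a gene that "rose" was higher in the libraries labelled Y6B3B.9. Scaling by DESeq2's size factors moved the median over all tested genes by -0.15 (log2), and scaling by library totals moved it by 0.29, so changes of that size carry no direction of their own.

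Most members were higher in the libraries labelled Y6B3B.9, in both classes, and the 2 most abundant receptor-like genes were lower. In whole worms, a different number of cells of a type and a different amount of RNA per cell cannot be told apart. In 56 of the 85 members the lowest Y6B3B.9 library was higher than the highest L4440 library, against 34.7% of all features with a read, and in 6 the whole Y6B3B.9 group was lower, against 24.1%. The 2 groups overlapped in 23. When edgeR was run with no filter on low counts, all 85 members were tested: 50 rose and 5 fell, against 29.6% and 25% of all features with a read. The split was 32 higher and 2 lower of 59 ligand-like genes, and 18 higher and 3 lower of 26 receptor-like genes.

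With the filter on low counts, 60 members were tested, 34 ligand-like and all 26 receptor-like. Of these, 54 were called in either direction, against 84.1% of all tested genes: 49 rose, against 46.4%, and 5 fell, against 37.7%. A rise of at least 2-fold was reached by 31, against 23.6% of all tested genes, and a fall of that size by 3, against 10.2%. Of the 60, 22 passed the filter in all 3 libraries labelled Y6B3B.9 but not in all 3 labelled L4440, so their place among the tested genes already depends on which label is high. Of those 22, 9 reached the filter's level in no L4440 library: grd-6, grd-10, grd-12, grd-16, grl-5, grl-7, grl-21, ptr-9 and ptr-16. Among the 35 members over the filter's level in all 6 libraries, 28 rose and 4 fell, where 42.4% of all such genes rose and 42.8% fell. By class this was 11 higher and 1 lower of 13 ligand-like genes, and 17 higher and 3 lower of 22 receptor-like genes.

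**Figure D1:**
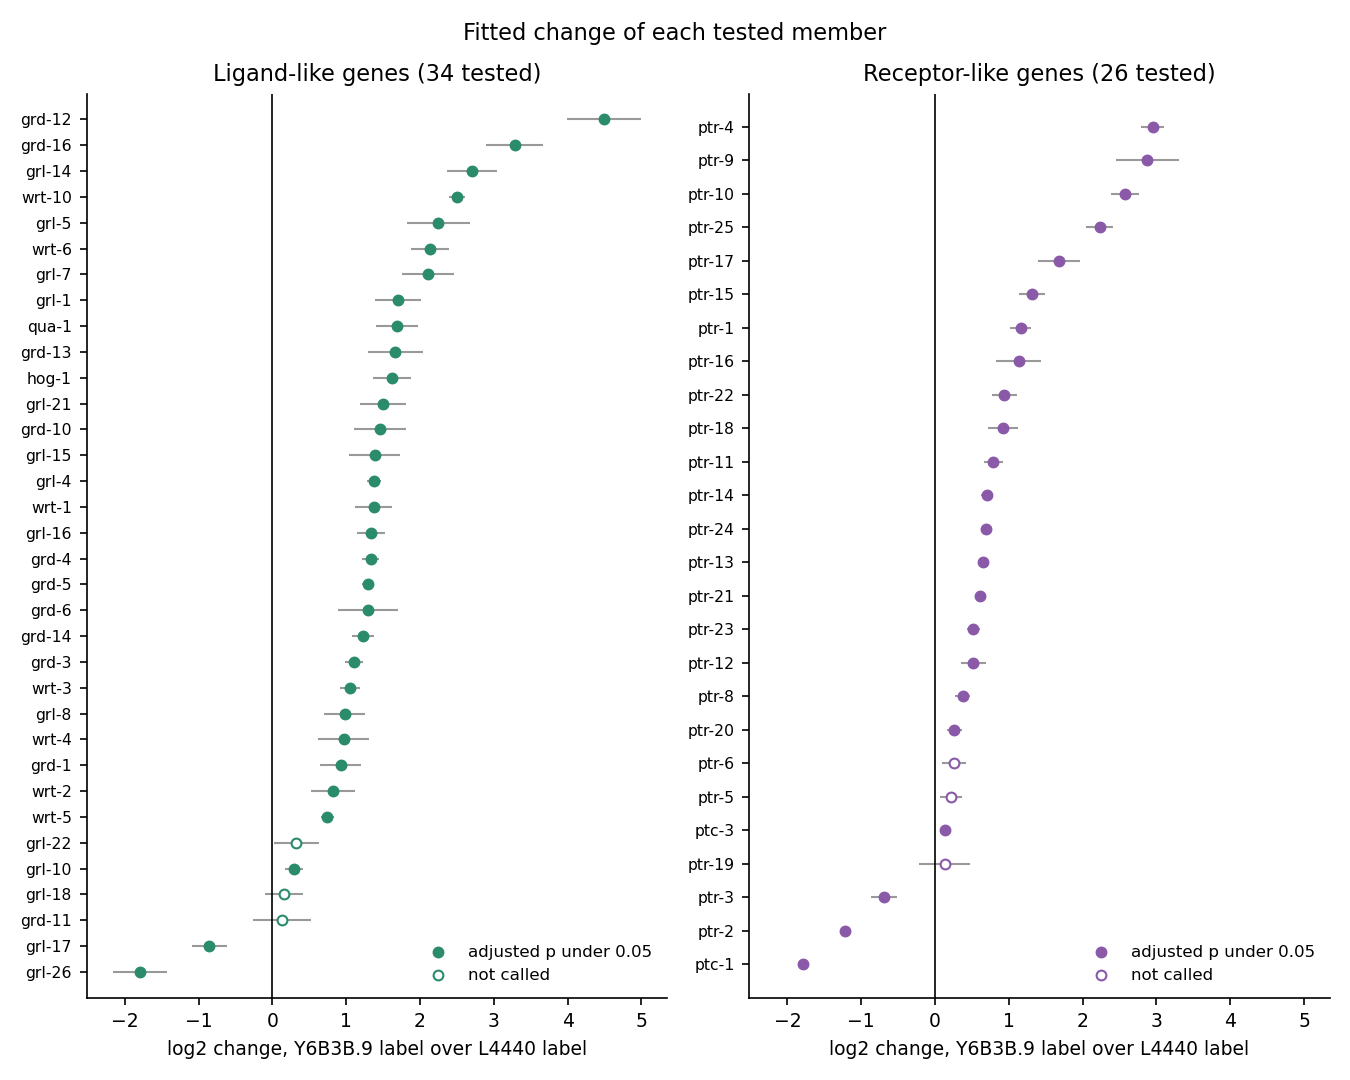
Fitted log2 change (x axis, Y6B3B.9 label over L4440 label) of the 34 tested ligand-like genes (left) and the 26 tested receptor-like genes (right), with bars of 1 standard error and open circles for genes past no threshold. Most points lie right of 0, with grd-12 (4.49) and ptr-4 (2.95) farthest right, and ptc-1 (-1.79), grl-26 (-1.79) and ptr-2 (-1.22) farthest left.

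Among the warthog genes, all 7 that were tested rose, against 46.4% of all tested genes. Of the 7, 3 passed the filter in all 3 libraries labelled Y6B3B.9 but not in all 3 labelled L4440. The 4 over the filter's level in all 6 libraries rose, against 42.4% of all such genes. wrt-10 (WBGene00006956, chromosome II at 7533262 to 7534563 in build WBcel235) moved most. It had 21.6, 19.8 and 17.4 CPM under the Y6B3B.9 label, against 3.36, 3.21 and 3.81 CPM under the L4440 label. The lowest library labelled Y6B3B.9 stood far above the highest labelled L4440, and the log2 change was 2.50 (SE 0.11, edgeR adjusted p = 7.17e-11), larger than that of 97.5% of tested genes. Its neighbour wrt-1 runs toward it from the other strand and ends 16 nucleotides away, and it rose by less, at a log2 change of 1.37. Strand was not recorded by the kit, so reads past the end of either gene could not be assigned to one of them.

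wrt-5, known to be needed in the embryo, had the highest level per length of the warthog genes, 18 CPM per kilobase under the Y6B3B.9 label and 10.7 under the L4440 label. It had 13.9, 13.7 and 15.5 CPM under the Y6B3B.9 label, against 8.49, 8.88 and 8.38 CPM under the L4440 label. The groups were separate, but the log2 change of 0.74 (standard error 0.089; edgeR adjusted p = 1.96e-06) was the smallest among the 7 tested warthog genes. wrt-3 had 6.72, 8.33 and 7.95 CPM under the Y6B3B.9 label, against 3.12, 4.18 and 3.78 CPM under the L4440 label, and rose by log2 1.05 (SE 0.13, edgeR adjusted p = 4.17e-06). The annotation used here gives wrt-3 exons of 2438 nucleotides in all, whereas the authors' values imply 774, so its level per length is uncertain.

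The remaining tested warthog genes were wrt-2, wrt-4 and wrt-6. wrt-6 had 60, 56 and 33 reads under the Y6B3B.9 label, against 7, 11 and 11 under the L4440 label, and rose by log2 2.14. wrt-4 (log2 change 0.96) and wrt-2 (0.82) also passed the test. Their calls were lost without 1 library: wrt-4 was at 0.82 without Y6B3B.9 replicate 3 and at 0.59 without L4440 replicate 3, and wrt-2 was at 0.60 without L4440 replicate 1 and at 0.67, also not called, with DESeq2's size factors. wrt-7, wrt-8 and wrt-9 had too few reads to pass the filter.

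Of the groundhog genes, 10 of 11 tested rose and 0 fell, against 46.4% and 37.7% of all tested genes. Of the 11, 6 passed the filter in all 3 libraries labelled Y6B3B.9 but not in all 3 labelled L4440. The 4 over the filter's level in all 6 libraries rose, against 42.4% of all such genes. grd-5 (WBGene00001694, chromosome V at 8619032 to 8619870) was the ligand-like gene with the highest level per length, at 62.8 CPM per kilobase under the Y6B3B.9 label and 25.6 under the L4440 label. It had 30.0, 34.2 and 34.4 CPM under the Y6B3B.9 label, against 12.8, 13.5 and 13.8 CPM under the L4440 label. The groups were separate, at a log2 change of 1.29 (standard error 0.075; edgeR adjusted p = 7.65e-10).

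Groundhog genes that lie side by side rose, as did 10 of the 11 tested groundhog genes wherever they lie. A link with position was not tested. grd-13, grd-3 and grd-10 follow each other on the plus strand of chromosome IV, 148 and 602 nucleotides apart, and rose by log2 1.67, 1.11 and 1.45. grd-14 and grd-4, 185 nucleotides apart on the plus strand of the X chromosome, rose by 1.23 and 1.33. grd-3 had 10.3, 9.85 and 12.0 CPM under the Y6B3B.9 label, against 5.61, 4.94 and 4.36 CPM under the L4440 label (edgeR adjusted p = 7.14e-07). grd-4 had 8.55, 9.66 and 9.44 CPM under the Y6B3B.9 label, against 3.84, 3.42 and 3.71 CPM under the L4440 label (edgeR adjusted p = 4.06e-08). Neither gene's groups overlapped. Whether the neighbours differed from one another was not tested.

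The steepest rises among the 34 tested ligand-like genes were in 2 groundhog genes close to silent under the L4440 label. grd-12 had 25, 36 and 25 reads under the Y6B3B.9 label, against 1, 0 and 2 reads under the L4440 label. Relative to the scaled totals the ratio came to 24.9 (95% counting interval 8.23 to 123). grd-16 had 48, 56 and 24 reads under the Y6B3B.9 label, against 5, 4 and 2 under the L4440 label, a ratio of 10.1 (counting interval 5.46 to 20.7). Such intervals cover counting error only, since the reads carry no molecular identifiers. Both genes passed the filter only through the libraries labelled Y6B3B.9. grd-1 (log2 change 0.92) and grd-6 (1.29) rose too, and grd-6 was no longer called without Y6B3B.9 replicate 2 (0.98). grd-11 was at 0.13 (SE 0.39) and was not called.

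The ground-like genes were the ligand-like family with members called in both directions. Of 31, 14 were tested, of which 10 rose and 2 fell, against 46.4% and 37.7% of all tested genes. Of the 14, 8 passed the filter in all 3 libraries labelled Y6B3B.9 but not in all 3 labelled L4440. Among the 5 over the filter's level in all 6 libraries, 3 rose and 1 fell, against 42.4% and 42.8% of all such genes. The median log2 change was 0.29 for these 5 and 1.36 for the 14. grl-4 (WBGene00001713, chromosome IV at 7309838 to 7310760) had the highest level per length of the ground-like genes. It had 13.9, 15.2 and 15.6 CPM under the Y6B3B.9 label, against 5.45, 5.99 and 5.70 CPM under the L4440 label. The groups were separate, and the log2 change was 1.38 (SE 0.095, edgeR adjusted p = 4.66e-09). grl-14 rose by log2 2.71, grl-5 by 2.25, grl-7 by 2.11, grl-1 by 1.70, grl-15 by 1.39, grl-16 by 1.34 and grl-8 by 0.98.

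grl-21, known with ptr-24 from work on lipid metabolism, had 23, 23 and 26 reads under the Y6B3B.9 label, against 6, 6 and 10 under the L4440 label. All 3 libraries labelled Y6B3B.9 were higher, at a log2 change of 1.5 (standard error 0.32; edgeR adjusted p = 0.000485). Like grd-12, grl-21 passed the filter only through the libraries labelled Y6B3B.9. grl-10 passed the test by little (log2 change 0.29, SE 0.12, edgeR adjusted p = 0.0364). It was no longer called without Y6B3B.9 replicate 1 (0.29) or replicate 3 (0.24), nor without L4440 replicate 1 (0.25) or replicate 3 (0.25), and it was at 0.14 and not called with DESeq2's size factors. It also shares 18 nucleotides with rpl-39, a ribosomal protein gene on the other strand with 96800 reads.

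The 2 ground-like genes that fell had few reads. grl-26 had 4, 4 and 4 reads under the Y6B3B.9 label, against 12, 11 and 14 under the L4440 label, and its log2 change of -1.79 (standard error 0.37; edgeR adjusted p = 0.000393) was as low as that of ptc-1. It passed the filter only through the libraries labelled L4440. grl-17 had 18, 27 and 19 reads under the Y6B3B.9 label, against 27, 35 and 39 under the L4440 label (log2 change -0.85, SE 0.24, edgeR adjusted p = 0.00391). Its closest libraries differed by little, 0.839 CPM at most under the Y6B3B.9 label and 1.08 CPM at least under the L4440 label. grl-18, whose promoter is used to mark socket glia of the head, was at 0.16 (SE 0.26), and grl-22 was at 0.33 (SE 0.30). Neither was called.

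qua-1 and hog-1, which like Hedgehog carry the self-cleaving part, both rose. qua-1, known to be needed for molting, had 75, 69 and 37 reads under the Y6B3B.9 label, against 24, 13 and 11 under the L4440 label, a log2 change of 1.69. hog-1 had 43, 47 and 45 reads under the Y6B3B.9 label, against 13, 15 and 10 under the L4440 label, a log2 change of 1.62. Neither gene's groups overlapped.

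The remaining 25 ligand-like genes, 17 of them ground-like, did not pass the filter and had between 3 and 59 reads over the 6 libraries. Together they took 333 reads under the Y6B3B.9 label, against 112 under the L4440 label. Their mean CPM was higher under the Y6B3B.9 label in 20 and lower in 5. Over all 23398 features with a read, it was higher in 14744 and lower in 8654. Among the 25, the groups overlapped in 17. In 7 the whole Y6B3B.9 group was higher and in 1 it was lower, where the shares over all features with a read were 34.7% and 24.1%. With no filter, 5 of the 25 were called higher (grd-2, grl-2, grl-3, grl-13 and wrt-8) and 0 lower, where the shares over all features with a read were 29.6% and 25%. grl-13 had 41 reads in the libraries labelled Y6B3B.9 against 3 under the L4440 label. grl-2, whose promoter is used to mark the excretory duct and pore cells, had 30 reads under the Y6B3B.9 label and 9 under the L4440 label. grl-11 and grl-19 had 4 reads each under the Y6B3B.9 label and 0 under the L4440 label, and grl-30 had 0 under the Y6B3B.9 label and 4 under the L4440 label.

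**Figure D2:**
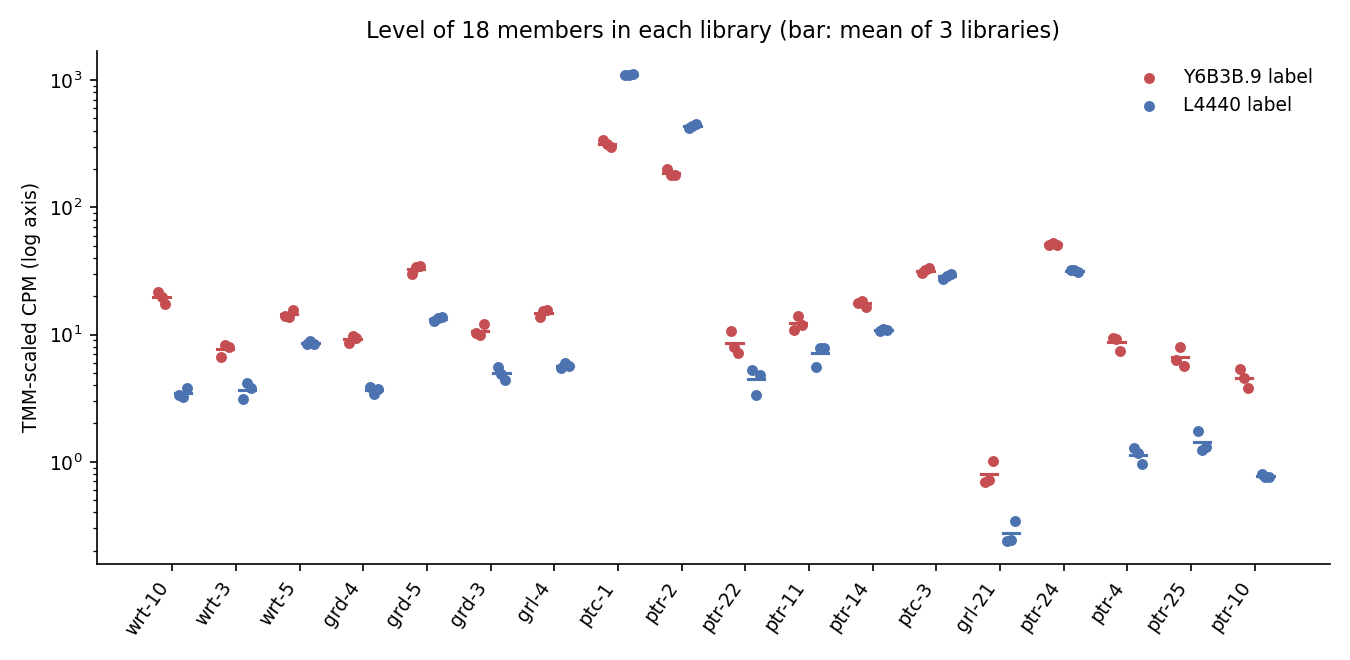
TMM-scaled CPM (y axis, log scale) of 18 members in each library, with the libraries labelled Y6B3B.9 left of those labelled L4440 and a bar at the mean of 3 libraries. For 16 of the genes the points of the Y6B3B.9 label lie higher, and for ptc-1 and ptr-2, at the top of the scale, they lie lower.

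Among the receptor-like genes, ptc-1 and ptr-2 stood apart in level, and they were 2 of the 3 that fell. ptc-1, a Patched homologue known for its part in cell division in the germline, is WBGene00004208 on the plus strand of chromosome II at 7893222 to 7900515, with 9 exons. It had 341, 314 and 296 CPM under the Y6B3B.9 label, against 1091, 1089 and 1116 CPM under the L4440 label. The means were 317 ± 22.8 CPM under the Y6B3B.9 label and 1099 ± 15.2 CPM under the L4440 label (SD, n = 3 each), and the log2 change was -1.79 (SE 0.059, edgeR adjusted p = 5.64e-12). It ranked near the bottom of all tested genes, with 1.61% below it.

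ptr-2 (WBGene00004217, chromosome I at 3789309 to 3792797, minus strand) had 199, 181 and 180 CPM under the Y6B3B.9 label, against 419, 438 and 448 CPM under the L4440 label. The groups were far apart, at a log2 change of -1.22 (standard error 0.054; edgeR adjusted p = 6.23e-11). Per length, ptc-1 reached 62.9 CPM per kilobase under the Y6B3B.9 label and 218 under the L4440 label, and ptr-2 reached 64.1 under the Y6B3B.9 label and 149 under the L4440 label. The next receptor-like gene by mean level over the 6 libraries was ptr-21, at 16.3 CPM per kilobase. ptc-1 alone made up 33.6%, 32.1% and 31.6% of all reads of the 85 members in the libraries labelled Y6B3B.9, and 61.3%, 60.8% and 60.6% under the L4440 label.

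Markers of oocytes and germline moved with ptc-1 and ptr-2. All 8 of 8 such markers fell, against 37.7% of all tested genes. Their log2 changes ran from -1.42 for rme-2, the oocyte yolk receptor, to -0.52 for puf-5. Their summed level was 4085 to 4157 CPM under the Y6B3B.9 label, against 8818 to 9179 CPM under the L4440 label. None of the 8 was at 0. Counted against the 8 germline markers within each library, which needs no scaling between libraries, ptc-1 had 8.21, 7.66 and 7.24 reads per 100 marker reads under the Y6B3B.9 label, and 12.4, 11.9 and 12.4 under the L4440 label. All 3 values under the Y6B3B.9 label were lower (exact two-sided permutation p = 0.1, the smallest that 3 against 3 libraries allow). ptr-2 had 4.80, 4.42 and 4.4 reads per 100 marker reads under the Y6B3B.9 label and 4.75, 4.77 and 4.96 under the L4440 label, and these groups overlapped (exact two-sided permutation p = 0.3). The markers themselves moved unequally on this scale: puf-5 was 1.70 times as high per read of the other 7 markers under the Y6B3B.9 label, and rme-2 was 0.784 times as high. Nor does the scale correct for gene length, and log2 change fell with length over all genes, as described below. ptc-1 is 5039 nucleotides long, and the median of the 8 markers is 2087.5. The log2 change was -1.79 for ptc-1 and -1.26 for the median marker, and -1.34 and -1.16 with the length trend removed.

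**Figure D3:**
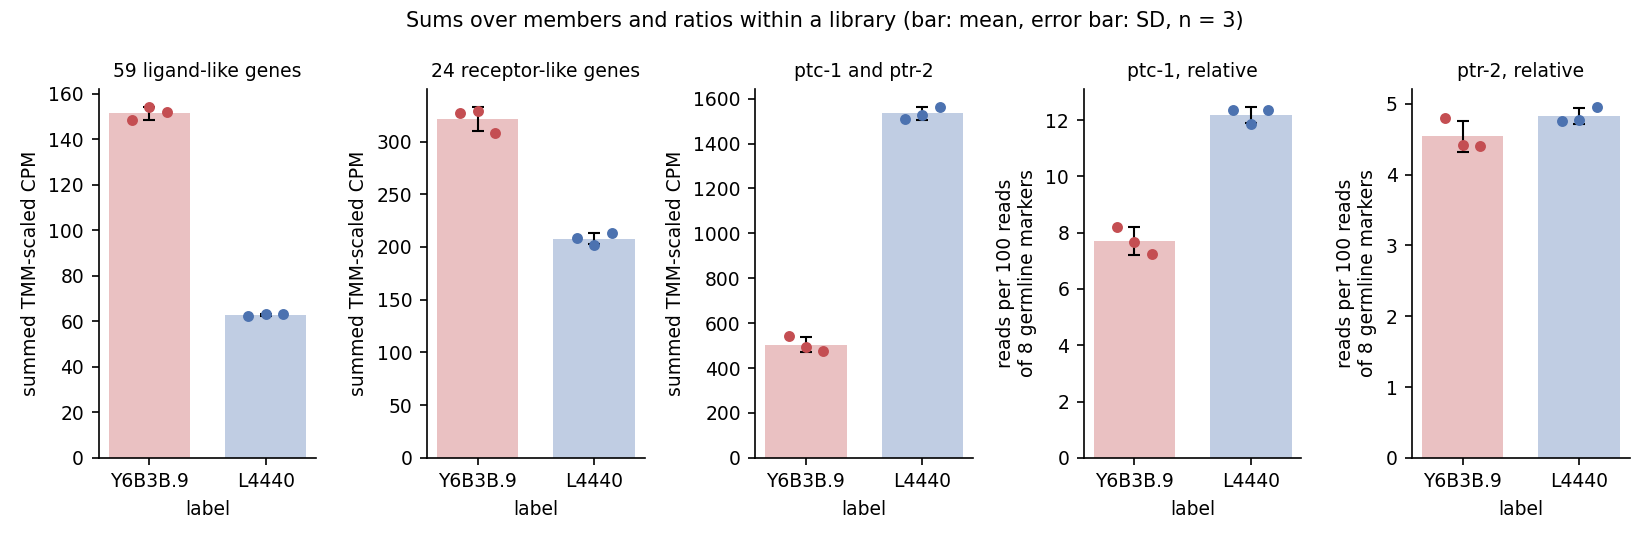
Summed TMM-scaled CPM of the 59 ligand-like genes, of the 24 receptor-like genes other than ptc-1 and ptr-2, and of those 2, and reads of ptc-1 and ptr-2 per 100 reads of 8 germline markers (y axes, from 0), for the Y6B3B.9 label (left bar) and the L4440 label (right bar). Bars are means of 3 libraries with their SD and points are libraries; the first and second sums are higher, the third sum and relative ptc-1 lower under the Y6B3B.9 label, and relative ptr-2 overlaps.

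Of the other 24 receptor-like genes, 20 rose, 1 fell and 3 were not called, where 46.4% of all tested genes rose and 37.7% fell. Their summed level was 321 ± 11.8 CPM under the Y6B3B.9 label and 208 ± 5.51 CPM under the L4440 label (SD, n = 3 each), a ratio of 1.55. With ptc-1 and ptr-2 included, the receptor-like sum was instead lower under the Y6B3B.9 label. It was 825 ± 42.2 CPM, against 1742 ± 31.8 CPM under the L4440 label (SD, n = 3 each), a ratio of 0.474. ptc-1 and ptr-2 were set apart for their level and fall in these same data. The sum over the 59 ligand-like genes was 151 ± 2.87 CPM under the Y6B3B.9 label and 62.9 ± 0.429 CPM under the L4440 label, a ratio of 2.41. Within a library there were 45.3, 46.8 and 49.3 reads of ligand-like genes per 100 reads of these 24 genes under the Y6B3B.9 label, and 30.0, 31.2 and 29.5 under the L4440 label. The groups were separate (exact two-sided permutation p = 0.1, the smallest possible). The same ratio with ptc-1 and ptr-2 included was not tested. The ratio to the 24 genes does not correct for gene length, in which the classes differ. Over all tested members, the ligand-like median log2 change was above the receptor-like by 0.66. That difference was 0.03 with the length trend removed, as described below.

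The largest rises among receptor-like genes were those of ptr-4, ptr-9, ptr-10 and ptr-25, whose mean level over the 6 libraries was below the 5 CPM required for full values, so that they were chosen after their values were seen. ptr-4, known for shaping the matrix outside the epidermis and for molting, had 9.42, 9.20 and 7.47 CPM under the Y6B3B.9 label, against 1.28, 1.17 and 0.962 CPM under the L4440 label. This was a ratio of 7.65 with a log2 rise of 2.95 (SE 0.16, edgeR adjusted p = 3.72e-10). ptr-10, whose promoter is used to mark glia, had 5.40, 4.54 and 3.82 CPM under the Y6B3B.9 label, against 0.801, 0.763 and 0.756 CPM under the L4440 label (log2 change 2.57, SE 0.19, edgeR adjusted p = 1.11e-08). ptr-25 had 6.36, 8.05 and 5.70 CPM under the Y6B3B.9 label, against 1.76, 1.25 and 1.31 CPM under the L4440 label (log2 change 2.23, SE 0.18, edgeR adjusted p = 2.49e-08). None of these groups overlapped. ptr-9 had 62 reads under the Y6B3B.9 label against 7 under the L4440 label, a ratio of 7.69 (counting interval 3.52 to 19.9). It passed the filter only through the libraries labelled Y6B3B.9.

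Receptor-like genes of middling level rose by smaller amounts. ptr-24, named above with grl-21, had 50.9, 52.5 and 51.0 CPM under the Y6B3B.9 label, against 31.9, 32.3 and 31.2 CPM under the L4440 label. The replicates lay close together and the groups were separate, at a log2 change of 0.69 (standard error 0.052; edgeR adjusted p = 1.09e-08). ptr-22 had 10.6, 7.99 and 7.12 CPM under the Y6B3B.9 label, against 5.25, 3.38 and 4.84 CPM under the L4440 label, with more spread (log2 change 0.94, SE 0.17, edgeR adjusted p = 0.000194). ptr-11 had 10.9, 14.1 and 12.0 CPM under the Y6B3B.9 label, against 5.61, 7.80 and 7.90 CPM under the L4440 label (log2 change 0.79, SE 0.13, edgeR adjusted p = 6.72e-05). ptr-14 had 17.8, 18.4 and 16.6 CPM under the Y6B3B.9 label, against 10.7, 11 and 10.8 CPM under the L4440 label (log2 change 0.70, SE 0.079, edgeR adjusted p = 1.05e-06). None of these 4 genes had overlapping groups.

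The log2 changes of the other called receptor-like genes ran from 1.67 for ptr-17 down to 0.14 for ptc-3. Between them lay ptr-15 (1.31), ptr-1 (1.16), ptr-16 (1.13), ptr-18 (0.92), ptr-13 (0.65), ptr-21 (0.61), ptr-23 (0.52), ptr-12 (0.52), ptr-8 (0.37) and ptr-20 (0.26). ptr-3 fell, at a log2 change of -0.70 (standard error 0.17; edgeR adjusted p = 0.00194), at 63, 59 and 39 reads under the Y6B3B.9 label and 67, 61 and 99 under the L4440 label. In CPM its groups did not overlap. ptr-5 (0.22), ptr-6 (0.25) and ptr-19 (0.13) were not called.

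The smallest of these rises rest on the scaling or on single libraries. ptc-3, an essential Patched homologue known from osmotic balance, had 30.3, 31.9 and 33.2 CPM under the Y6B3B.9 label, against 27.5, 28.9 and 30.1 CPM under the L4440 label. The groups nearly touch, and the log2 change of 0.14 (standard error 0.062; edgeR adjusted p = 0.0479) was -0.0104 with DESeq2's size factors. It was no longer called without any 1 of 5 libraries, Y6B3B.9 replicates 2 (0.13) and 3 (0.10) and L4440 replicates 1 (0.0915), 2 (0.11) and 3 (0.16). ptr-20 lost its call without Y6B3B.9 replicate 2 (0.28) or 3 (0.20) or L4440 replicate 1 (0.21) or 2 (0.17), and with DESeq2's size factors (0.11). ptr-12 lost it without Y6B3B.9 replicate 1 (0.37) or L4440 replicate 3 (0.39) and with DESeq2's size factors (0.37), and ptr-8 with those size factors (0.22).

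The ligand-like genes had the larger log2 changes, but the 2 classes differ in length, and log2 change fell with length over all genes. The median log2 change was 1.33 for the 34 tested ligand-like genes, 0.67 for the 26 receptor-like genes and 0.22 for all 14265 tested genes. The median length was 978 nucleotides for the tested ligand-like genes and 2941 for the receptor-like genes. A smooth curve through all tested genes gave a log2 change of 0.35 at 1000 nucleotides and -0.26 at 3000. With that trend removed the medians were 0.95 for ligand-like and 0.92 for receptor-like genes, so the difference between the classes was 0.66 before and 0.03 after that step. Among the 35 members over the filter's level in all 6 libraries the ligand-like median was above the receptor-like by 0.597, and below it by 0.219 with the trend removed.

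Set against genes of their own length, both classes were still mostly higher. Of the ligand-like genes, 29 of 34 lay above the median of all tested genes in the same of 20 length bins, and of the receptor-like genes 23 of 26. The exceptions were grl-10, grl-17, grl-18, grl-22 and grl-26 among ligand-like genes, and ptc-1, ptr-2 and ptr-3 among receptor-like genes. Of the 34, 19 passed the filter in all 3 Y6B3B.9 libraries but not in all 3 L4440 libraries, which favours a place above the median. Over the filter's level in all 6 libraries, the medians with the trend removed were 0.65 for ligand-like and 0.87 for receptor-like genes. Over all such genes the median was -0.21. With the trend removed, 26 ligand-like and 22 receptor-like genes rose and 2 and 3 fell, where 37.3% of all tested genes rose and 43.9% fell. wrt-2, grl-8 and grl-10 lost their call by this step, grl-10 turning to -0.0577, ptr-5 and ptr-6 gained one, and ptc-3 was at 0.56. Across the 34 tested ligand-like genes, log2 change and log2 length had a Pearson r of 0.0098, and across the 26 receptor-like genes one of -0.35. These values are across genes, which share the same 6 libraries and are not independent replicates.

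**Figure D4:**
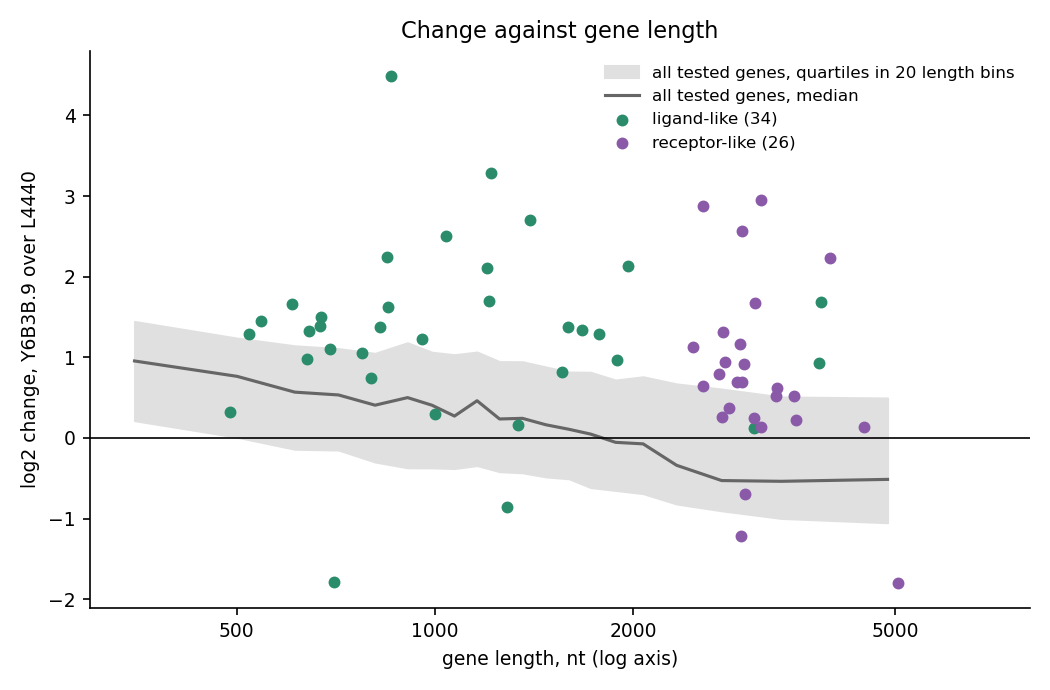
Log2 change (y axis, Y6B3B.9 label over L4440 label) against gene length in nucleotides (x axis, log scale) of the 34 ligand-like and 26 receptor-like genes tested, over the median (line) and quartiles (band) of all tested genes in 20 length bins. The line falls below 0 for genes of the receptor-like length, and 23 of 26 receptor-like and 29 of 34 ligand-like genes lie above the median of their bin.

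By level the classes differed as well. The median level per length was 0.445 CPM per kilobase for ligand-like genes under the Y6B3B.9 label and 0.161 under the L4440 label, and for receptor-like genes it was 2.51 under the Y6B3B.9 label and 0.980 under the L4440 label. Under 1 CPM per kilobase on average over the 6 libraries lay 46 of the 59 ligand-like genes and 10 of the 26 receptor-like genes. On the chromosomes, 28 of the 59 ligand-like genes (47.5%) lie on V, which holds 25% of coding genes, while 15 of the 26 receptor-like genes lie on I (7) and II (8).

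Genes that act with these families, or share the sterol-sensing domain with Patched, mostly rose too. In a list of 11 such genes 9 rose and 2 fell, against 46.4% and 37.7% of all tested genes, with a median log2 change of 1.07. daf-6, a Patched-related gene that shapes the channel glia form around sensory neurons, had the largest rise (3.24, SE 0.20), at 530 reads under the Y6B3B.9 label against 48 under the L4440 label. hhat-2 (2.81) and hhat-1 (2.22), named for the enzyme that acylates Hedgehog, rose, as did phg-1 (1.60), che-14 (1.09), related to the Hedgehog release factor Dispatched, ptd-2 (1.07), the cholesterol transport genes ncr-1 (0.95) and ncr-2 (0.72), and lrp-1 (0.50), a megalin homologue needed for molting. The genes that fell were tra-1 (-0.73, SE 0.060), the worm's Gli homologue, which acts in sex determination, and scp-1 (-1.24, SE 0.053), related to the sterol sensor SCAP. scp-1 had 1.68, 1.52 and 1.5 reads per 100 reads of the 8 germline markers under the Y6B3B.9 label and 1.73, 1.67 and 1.67 under the L4440 label, which overlap.

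Genes of the tissues in which these families are best known moved in both directions. Over all tested genes, 46.4% rose and 37.7% fell. Of 23 tested genes of molting and the apical matrix, 20 rose and 0 fell (median log2 change 1.89), with mlt-4 (4.25), lpr-3 (3.29) and noah-2 (2.20) as examples, and mlt-10 (-0.11), nas-36 (0.40) and bli-3 (-0.12) not called. Their summed level was 287 to 364 CPM under the Y6B3B.9 label, against 106 to 123 CPM under the L4440 label. Transcription factors of the epidermis and of molt timing divided, with 11 of 17 higher and 5 lower. nhr-25 (1.57) and blmp-1 (0.86) rose, whereas nhr-23 (-1.08), lin-42 (-1.14), myrf-1 (-1.53), lin-26 (-0.55) and elt-1 (-0.25, less than the shift that library totals give) fell.

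Markers of the cell types that could carry these transcripts also shifted, and their part in the changes of the members was not tested. The shares over all tested genes were again 46.4% higher and 37.7% lower. Of 12 tested epidermis and seam markers 9 rose and 3 fell, and their summed level was 273 to 288 CPM under the Y6B3B.9 label and 344 to 356 under the L4440 label, a sum in which lin-26 weighs most. grd-10 is counted both there and among the members. Of 6 tested glia and socket cell markers 5 rose, ptr-10, itself a member, among them, with a summed level of 17.2 to 22.2 CPM under the Y6B3B.9 label and 9.24 to 10.4 CPM under the L4440 label. Here delm-2 had 0 reads under the L4440 label. All 7 tested early embryo markers fell. The eighth, sdz-1, did not pass the filter and had 35 reads under the Y6B3B.9 label and 7 under the L4440 label, with groups that did not overlap. The list had a summed level of 26.7 to 33.7 CPM under the Y6B3B.9 label and 146 to 216 CPM under the L4440 label. All 5 intestine markers rose, and summed to 17678 to 18900 CPM under the Y6B3B.9 label and 12751 to 13476 CPM under the L4440 label. Of 5 neuron markers 3 rose and 1 fell, at sums of 245 to 267 CPM under the Y6B3B.9 label and 216 to 229 CPM under the L4440 label. Of 4 muscle markers 0 rose and 1 fell, and the summed levels overlapped, at 431 to 471 CPM under the Y6B3B.9 label and 362 to 483 CPM under the L4440 label.

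Exons of 17 tested members overlap another gene, in 10 of them one with more reads than the member. wrt-2 shares 43 nucleotides with pccb-1 (44340 reads, log2 change -0.77) and ptr-1 shares 49 with spas-1 (28188 reads, -0.40), and both members rose. Apart from wrt-3, of whose exons 41.1% overlap a pseudogene with 13 reads, no overlap of a tested member covered more than 14.2% of its exons. An exact two-sided permutation test over the 6 libraries gave p = 0.1, the smallest possible, for each of the 15 genes given full values by the rule in the methods. Most of these genes were chosen for a large called change in these same data, so this test adds no separate support.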

How the data were processed

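RNA of whole worms was sequenced from unstranded TruSeq RNA v2 libraries, per the labels' protocols. The submitters' processing notes name STAR 2.4.1d, featureCounts 1.4.6-p4, bcl2fastq 1.8.4 and build WBcel235. How they were set, and with which annotation, is not given in the sources used here. Every main test uses the raw whole-number counts per gene that the authors deposited.

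The authors also deposited RPKM values. Among 4330 genes with at least 1000 reads in every library, the length implied by count and RPKM was equal over libraries, within 0.1%, for 4330 genes if the 6 library totals had been recycled along the table, and for 0 with each library's own total. RPKM served as an alternative only and, so corrected, as the source of gene lengths.

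Symbols were matched by gene ID for 43693 features, and positions came from Ensembl release 115 of the same build. edgeR 4.0.16 (R 4.3.3) was run with filterByExpr (minimum count 10), TMM and robust=TRUE. Standard errors come from the F statistic. Full values are given for up to 5 called genes per family with the largest change and a mean of at least 5 CPM, the highest level per length in each family, and ptc-1, ptc-3, grl-21 and ptr-24. The length trend is a loess curve (span 0.5) removed through offsets. Alternatives also used DESeq2 1.42.0 and limma 3.58.1. Tests were tried on simulated data. The members and the 10 lists were chosen with earlier results of these data known. Of the 109 list entries, elt-5 (in 2 lists), qsox-1 and mir-228 matched no symbol.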

Additional observations from a re-analysis of the deposited data

How the results depend on the processing

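With at least 1 CPM in 3 libraries, 18 ligand-like genes were called higher and 0 lower of 19 tested, since fewer genes were tested. Over all 12299 genes tested under that setting, 5927 were called higher and 4851 lower. A gene could pass this filter through the 3 libraries of 1 label alone, so its place can depend on which label is high. On the deposited RPKM, 1 ligand-like gene was called lower with a pseudocount of 0.1 and 1 with a pseudocount of 1, and over all genes 2762 and 2747 were called lower, against 5380 in the main test. The cause was not tested. Both counts of receptor-like genes stayed within 1.5 times of the main count in all 15 alternatives.

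The median log2 change of the ligand-like genes, 1.33 as reported, was 1.18 with DESeq2's size factors and 1.18 in the DESeq2 Wald test, 1.62 with library totals, 1.20 with no filter, 1.46 with at least 1 CPM in 3 libraries, 1.4 and 0.72 in limma-trend on RPKM with pseudocounts of 0.1 and 1, 0.95 with the length trend removed, and between 1.24 and 1.33 without 1 library. For the receptor-like genes, 0.67 as reported, the values in the same order were 0.52, 0.52, 0.96, 0.58, 0.74, 0.86, 0.47 and 0.92. The 2 scalings shift every gene alike, the pseudocount of 1 shrinks changes of low genes by construction, and the cause of the other differences was not tested.

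Of the 15 genes with full values, 14 kept direction and call wherever they were tested. The exception, ptc-3, turned to -0.0104 under DESeq2's size factors and to -0.0102 in the Wald test. Of all tested members, 24 of 34 ligand-like and 17 of 26 receptor-like genes kept call and direction in every alternative that tested them. The curve left genes of the receptor-like length below 0 (bin median -0.31 at 2725 nucleotides), so the class difference with the trend removed depends on that fit. Depth limits the 25 genes that failed the filter.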
